A study of Mus musculus with 51 samples.

Results

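Hells knockout germ cells were compared, for the histone mark H3K4me3, with germ cells that still had HELLS. The members are 7 chromatin immunoprecipitation libraries of the 51 samples in the series, chosen by genotype and antibody from the labels. They are 3 libraries of a Hells conditional knockout (Hells CKO) and 4 HELLS-competent libraries. The competent libraries are 1 of Hells wt, 1 of Spo11/+ and 2 of Spo11/Spo11, and the last lack SPO11 on both alleles. All came from enriched male germ cells of mice aged 12 to 14 days, digested with MNase and precipitated with an H3K4me3 antibody. The labels give neither the Cre driver of the knockout, nor the part of Hells it removes, nor the strain background or Prdm9 allele of the Hells and Spo11 lines, so that line and genotype cannot be told apart for the 3 Spo11-line controls. The labels do not tie any library to its own animal, and p-values below therefore reflect spread between libraries that may be technical.

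HELLS is a chromatin remodeller of the SNF2 family. In early meiotic prophase it works with PRDM9, a zinc-finger protein that binds DNA at recombination hotspots and methylates histone H3 at lysines 4 and 36 on the nucleosomes beside its site. SPO11 then cuts DNA at many of these sites, and DMC1 coats the resected ends, so that a DMC1 peak marks where breaks form. H3K4me3 is also laid down at active promoters by other methyltransferases, and mice without PRDM9 make their breaks at such places instead.

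The authors' table gave raw read counts in 78960 regions, in mm10 coordinates. A region within 1000 bp of an annotated transcription start was called a promoter. A hotspot was a region away from starts that overlapped a DMC1 peak of Hells heterozygous testis at 6 weeks of age, and there were 11563 of them. Of these, 1144 also overlapped a DMC1 peak of Hells CKO testis and 10419 did not. The authors' segmentation of the genome into 11 chromatin states gave a second, separate label. State 7 held 9416 hotspots (81.4%), and each of the 12808 regions in state 7 was a state 7 segment with 2 bp trimmed at both ends. The table was thus built in part from that segmentation, and the sources used here do not name the marks and libraries behind it, so that state 7 regions may have been picked for a high mark in HELLS-competent cells. Levels below are CPM: each count was divided by its library's sum over regions times the TMM factor, with no division by length.

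State 7 hotspots had a median length of 996 bp, which follows the segmentation. Many had no exact copy, in their central 300 bases, of the 9-base motif GNTGCTNCT that is known for the C57BL/6 allele of PRDM9. The motif was searched on both strands, overlaps included, in the central 300 bases of every region, and was found in 10.8% of all regions and in 21.2% of state 7 hotspots. The hotspots below are the 6 with the lowest p among state 7 hotspots that fell and had 1 match, leaving out stretches in untranslated exons. They were chosen for display after their values were seen. Each line gives the match in capitals with its flanks, in the direction of the match, from GRCm38.
chr2:120066348-120066396, plus strand, Sptbn5 exon: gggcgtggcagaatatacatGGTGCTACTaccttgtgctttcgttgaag
chr1:192440671-192440719, plus strand, Kcnh1 intron: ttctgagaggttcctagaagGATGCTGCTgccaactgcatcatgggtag
chr9:64611342-64611390, plus strand, Megf11 intron: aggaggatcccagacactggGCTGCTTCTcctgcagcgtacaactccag
chr8:84173447-84173495, minus strand, intergenic: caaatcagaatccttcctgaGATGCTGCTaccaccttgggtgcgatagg
chr7:116255895-116255943, plus strand, Plekha7 intron: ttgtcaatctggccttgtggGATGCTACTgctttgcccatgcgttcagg
chr4:55610816-55610864, minus strand, Gm12506 intron: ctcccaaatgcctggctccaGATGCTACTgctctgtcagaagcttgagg
Regions on 1 chromosome were passed over in every choice of named regions by p or level, above and below. Among the other hotspots, the strongest loss by p lay at chr8:36139403-36140998, over an exon of Prag1. Its central 300 bases held no match, which says only that these letters are not in this window.
Prag1, centre, plus strand: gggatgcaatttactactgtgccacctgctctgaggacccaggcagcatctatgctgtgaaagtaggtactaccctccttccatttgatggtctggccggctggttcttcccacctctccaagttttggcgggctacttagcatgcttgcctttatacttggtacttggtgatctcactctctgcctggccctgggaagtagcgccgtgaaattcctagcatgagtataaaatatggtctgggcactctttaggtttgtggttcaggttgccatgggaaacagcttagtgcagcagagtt
At the other end, a repeat at chr4:139929403-139930598, in introns of 4933427I22Rik and Gm13028, held 14 matches, all on the minus strand, in its central 300 bases. It had no DMC1 peak, and reads in a short repeat may be placed with less certainty.
Repeat, centre, plus strand: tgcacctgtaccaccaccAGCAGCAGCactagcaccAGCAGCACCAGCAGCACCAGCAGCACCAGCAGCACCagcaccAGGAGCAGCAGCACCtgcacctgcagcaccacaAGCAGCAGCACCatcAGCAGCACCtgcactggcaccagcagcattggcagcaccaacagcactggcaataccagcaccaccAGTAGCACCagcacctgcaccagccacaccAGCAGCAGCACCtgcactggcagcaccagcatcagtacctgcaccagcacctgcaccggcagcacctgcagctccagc

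The libraries held 35468589, 18780063 and 29400200 counts in Hells CKO, 13321006 in Hells wt, 29341467 in Spo11/+, and 32991761 and 42007820 in Spo11/Spo11. Across regions, the log CPM of Hells wt correlated with the Hells CKO libraries at r = 0.894 to 0.929 and with the other competent libraries at r = 0.940 to 0.955. The Spo11-line libraries correlated with Hells CKO at r = 0.767 to 0.865 and with each other at 0.983 to 0.990, all over the same 78933 regions, which are not independent replicates. A group of 9 regions at the start of chromosome 9 took 1.87%, 5.03% and 3.33% of the counts in Hells CKO and 5.52% in Hells wt, against 0.601% to 0.718% in the Spo11-line libraries. Hells CKO replicate 2 and Hells wt, whose library identifiers in the labels follow each other, were the highest in these regions and the shallowest.

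H3K4me3 was lower in Hells CKO at nearly all state 7 hotspots. The median state 7 hotspot stood at 0.373, 0.671 and 0.367 CPM in the 3 Hells CKO libraries, and at 2.41 in Hells wt, 4.32 in Spo11/+ and 3.52 and 3.34 in Spo11/Spo11. The 2 groups did not overlap, and Hells wt was the lowest of the competent libraries. At 9314 of the 9411 tested, every Hells CKO library was below every competent one, as in 19.5% of all regions, and at 0 was every one above, as in 9.46% of all regions. Of 9411 state 7 hotspots tested, 9264 fell and 0 rose (edgeR quasi-likelihood test, Benjamini-Hochberg adjusted p under 0.05), and 147 passed in neither direction. By DESeq2, 9287 fell and 0 rose, and with p under 0.05 before adjustment 9368 were lower and 0 higher. The median log2 fold change was -2.98, with quartiles of -3.30 and -2.57, a 7.89-fold loss. Over all 78933 regions tested, 17.4% were lower and 3.74% higher, and the median was 0.09. At 98.4%, the share of state 7 hotspots that fell was far above this background, which includes them. Of 36668 tested regions outside state 7 with no promoter and no DMC1 or HELLS peak, 1.64% fell. State 7 regions may have been picked for a high mark in HELLS-competent cells, and the part of that in the fall was not tested.

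**Figure D1:**
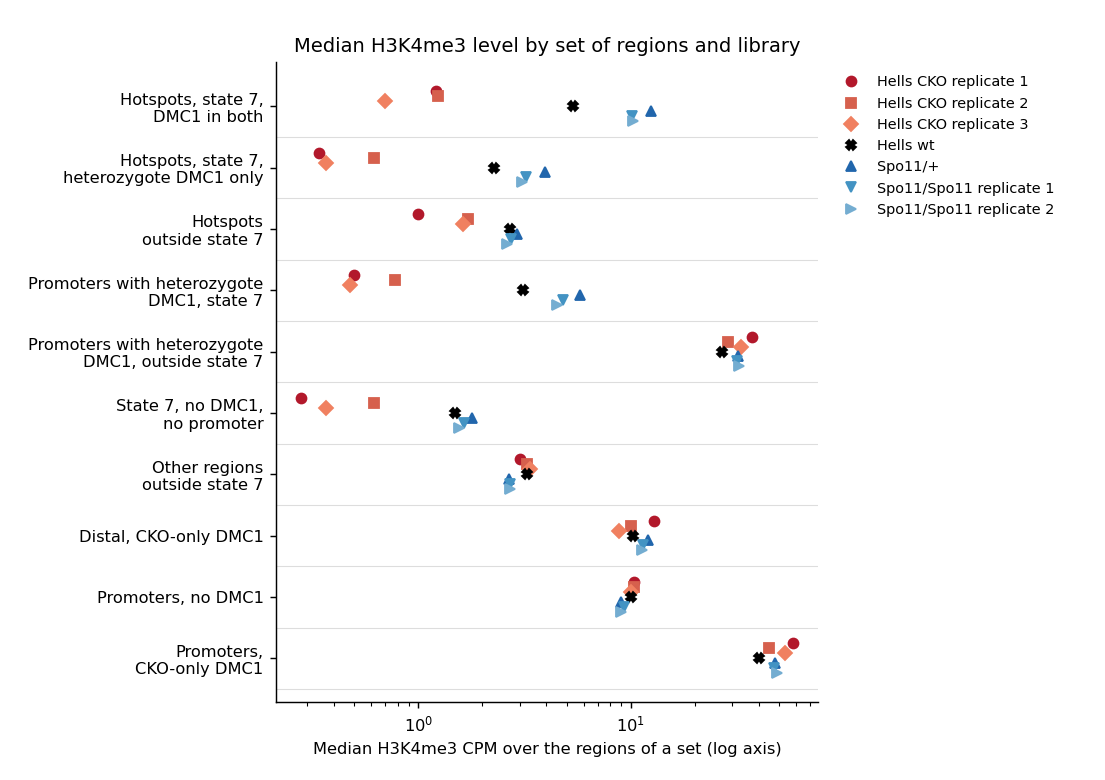
Median H3K4me3 CPM (log axis) over the regions of each set, with 1 point per library: red for Hells CKO, black for Hells wt and blue for the Spo11-line libraries. In the 4 rows of state 7 regions every Hells CKO library lies left of every competent library, while for distal regions with a CKO-only DMC1 peak and for promoters outside state 7 the libraries intermingle or differ little.

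Outside state 7 the loss was smaller and less general. The median log2 fold change of the 2147 hotspots there was -1.15, and 1216 fell (56.6%), 18 rose and 913 passed in neither direction. The median such hotspot had 0.995, 1.70 and 1.61 CPM in Hells CKO and 2.69, 2.93, 2.73 and 2.62 in Hells wt, Spo11/+ and Spo11/Spo11. The response differed between states: 44.8% of 560 hotspots in state 1 fell, with a median of -0.53, and 48.5% of 672 in state 2, with a median of -0.68. In state 11 it was 91.5% of 282 hotspots, with a median of -2.41. States 6, 8 and 9 were similar, with 88.5% of 104, 85.7% of 63 and 93.55% of 31, and medians of -2.42, -2.41 and -2.43. The median hotspot of states 6, 8, 9 and 11 was low, at 0.09 to 0.46 CPM in Hells CKO and 0.78 to 1.43 in the competent libraries. In states 3, 4, 5 and 10 the share was 37.1% of 245, 60% of 135, 60.8% of 51 and 75% of 4. States 1 and 2 also held most regions of the table with no DMC1 peak, and there only 1.83% and 2.55% of all 25087 and 24495 regions fell. Hotspots outside state 7 that did not fall had a median GC content of 48.7% and 9.56% of them held the motif, against 47.3% and 15.9% among those that fell.

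**Figure D2:**
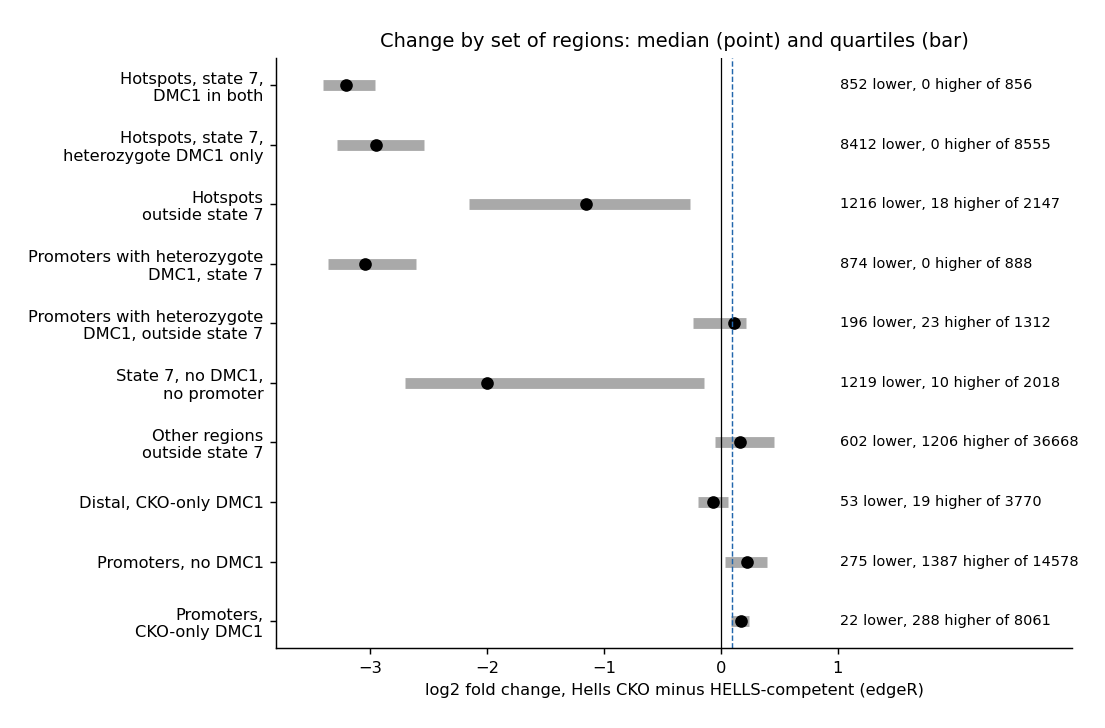
Log2 fold change of H3K4me3, Hells CKO minus the 4 competent libraries, for sets of regions: the point is the median, the bar spans the quartiles, and the counts give regions lower and higher at an adjusted p under 0.05. The dashed line is the median of all regions, 0.09, and the 4 sets in state 7 lie between -2.0 and -3.21.

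Outside the chromosome passed over, the 6 hotspots with the lowest p were all in state 7. At Prag1 the level was 0.777, 0.774 and 0.953 CPM in Hells CKO, 10.4 in Hells wt, 13.7 in Spo11/+ and 13.8 and 10.9 in Spo11/Spo11, a log2 change of -3.86 ± 0.21 (SE). In an intron of Lingo1, which encodes a neuronal receptor component (chr9:56732603-56733998), it was 0.560, 0.929 and 0.733 CPM against 9.07, 11.3, 10.2 and 9.70. The groups lie about as far apart at both sites, with little spread inside either. The hotspot in an intron of the noncoding gene Gm14342 (chr2:180879803-180881598) changed by -4.17 ± 0.25, the largest of the 6. That over an exon of Cfap65, a gene of the sperm flagellum (chr1:74927603-74928798), changed by -4.10 ± 0.25. The hotspot in an intron of Stk32c, a kinase gene (chr7:139147803-139149398), had 1.18, 1.55 and 0.953 CPM in Hells CKO and 11.1, 14.9, 15.7 and 12.8 in the competent libraries. The edgeR adjusted p was 1.2e-05 at each of the 6.

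Over an exon of Sptbn5, a spectrin gene (chr2:120065203-120067798), the mark stood at 5.10, 3.97 and 3.85 CPM in Hells CKO and at 31.5, 49.7, 53.0 and 46.9 in Hells wt, Spo11/+ and Spo11/Spo11. This was the only one of the 6 that also had a DMC1 peak in the Hells CKO list, and its change was -3.39 ± 0.21. So a hotspot that was still listed for breaks had lost most of its mark.

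The 4 hotspots with the highest level in the competent libraries, outside the chromosome passed over, gave a different picture. A hotspot in Sfi1, a centrosome gene with untranslated exons in this region (chr11:3132803-3134198, state 7), had 9.42, 27.3 and 18.4 CPM in Hells CKO and 104, 110, 107 and 92.1 in the competent libraries, a change of -2.50 ± 0.29 (edgeR adjusted p = 4.3e-05). The other 3 lay in state 1 and did not pass the test. One 10367 bp from Osbp (chr19:12004479-12013908) had 210, 126 and 156 CPM in Hells CKO and 106, 155, 137 and 150 in the competent libraries. The groups overlap there, and the change was 0.26 ± 0.19. The ranges for the hotspots near Dhx37 (chr5:125402035-125410689) and in Gm44734 (chr7:73614566-73620091) were 99.4 to 137 against 85.2 to 98.9 CPM and 73.9 to 101 against 64.8 to 91.0 CPM. By level in Hells CKO alone the leading hotspots were these 3 and one 33110 bp from Ccr1 (chr9:123923030-123929014, state 1), with 78.4, 77.1 and 101 CPM against 61.1 to 73.8 and a change of 0.37 ± 0.14 (edgeR adjusted p = 0.0815). The 4 named hotspots with the highest CPM in the knockout were thus long regions in state 1. As CPM was not divided by length, this ranking favours long regions and does not compare the density of the mark with that at state 7 sites.

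**Figure D3:**
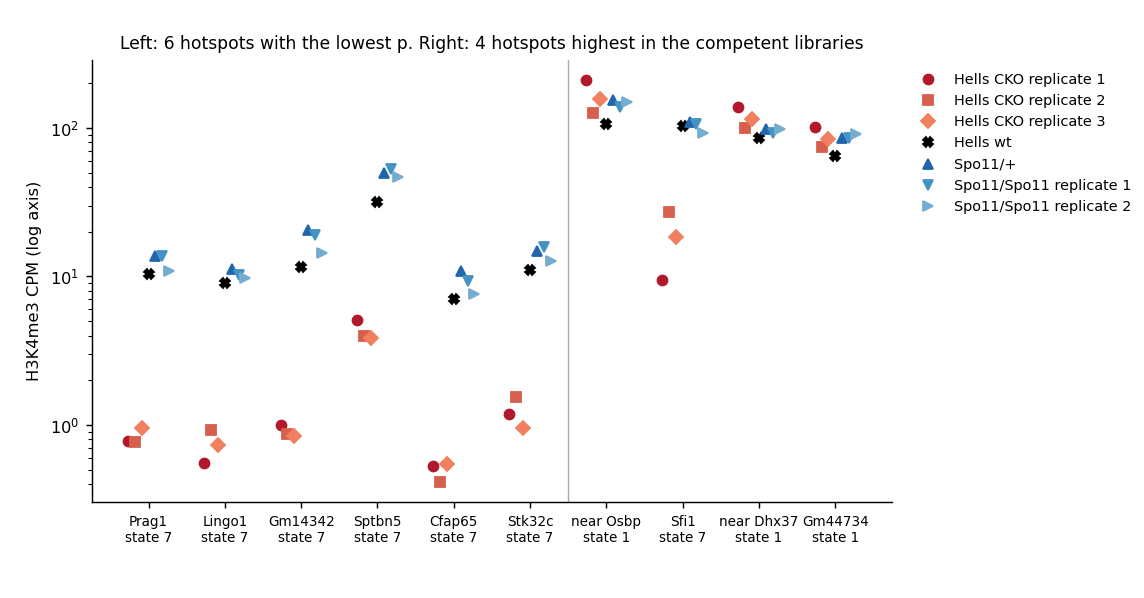
H3K4me3 CPM (log axis) in each library at 10 hotspots, named by gene or nearest gene, with the 6 of lowest p left of the line and the 4 of highest competent level right of it. Hells CKO points lie at or below 5.10 in the left set, and at the right only Sfi1, in state 7, has its groups apart with the knockout lower.

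Loss in state 7 was not limited to hotspots, and was less general where no DMC1 peak was listed. Of 2018 tested state 7 regions with no DMC1 peak and no promoter, 1219 fell (60.4%) and 10 rose, with a median log2 change of -2.0. Among 888 state 7 promoters with a heterozygote DMC1 peak, 874 fell and 0 rose (0 higher at an unadjusted p under 0.05, and 0 by DESeq2), and the median was -3.05. For the latter the median level was 0.498, 0.774 and 0.477 CPM in Hells CKO and 3.12, 5.75, 4.79 and 4.48 in the competent libraries. State 7 promoters with no DMC1 peak changed less: of 421, 154 fell (36.6%), 8 rose and 259 passed in neither direction, and the median was -0.19. Their median level was 1.99, 1.497 and 1.36 CPM in Hells CKO and 2.06, 2.10, 2.02 and 1.86 in the competent libraries, so that the groups overlap. Promoters with a heterozygote DMC1 peak outside state 7 fell less often than those in it. Of 1312, 196 fell (14.9%) and 23 rose (1.75%), and the median was 0.11. Of 14157 promoters with no DMC1 peak outside state 7, 0.855% fell.

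With the same chromosome passed over, the 5 promoters with the lowest p all had a heterozygote DMC1 peak and lay in state 7. They belonged to Efcc1 (chr6:87753603-87754998), Pex11a (chr7:79736203-79737998), whose product acts in peroxisome division, and the genes Gm17139, A630023P12Rik and Gm26890. The Pex11a region had 1.96, 2.06 and 1.87 CPM in Hells CKO and 12.3, 19.7, 18.3 and 15.4 in the competent libraries. The Efcc1 region had 0.871, 1.497 and 0.953 CPM against 10.9, 14.3, 13.3 and 10.8. Changes of the 5 ran from -3.59 to -3.07. Without a DMC1 peak, the 4 other regions with the lowest p were in state 7 as well, at chr12:116480603-116481598 between genes, in introns of Tex264 (chr9:106675003-106675998) and 1700010N08Rik (chr7:38854403-38855598), and at the chromosome 4 repeat printed above. The repeat stood at 0.373, 0.981 and 0.697 CPM in Hells CKO and at 7.37, 9.28, 8.18 and 7.42 in the competent libraries, a change of -3.62 ± 0.28. In the Tex264 intron, within a gene for an autophagy receptor, the levels were 0.529, 0.723 and 0.550 against 5.39, 6.12, 6.54 and 5.08 CPM.

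The motif was more frequent among regions that fell in each of the sets compared, by a margin that differed between sets, as a description only. In state 7 the margin was small: 21.3% of 9264 hotspots that fell and 16.3% of 147 that did not (24 regions) held it, and 19.1% of 1219 and 15.9% of 799 regions with no DMC1 peak and no promoter. Among other regions outside state 7, it was found in 19.6% of the 602 that fell and in 8.19% of the 36066 that did not. For promoters the shares were 22.5% of 1367 and 9.39% of 23472. Over all regions, those that fell had a lower median GC content than those that did not, 43.7% against 51.7%, and were shorter, 996 against 1458 bp. Promoters, and hotspots and other regions outside state 7, went the same way. State 7 hotspots went the other way, with 42.7% against 40.7% and 996 against 596 bp. State 7 regions with no DMC1 peak and no promoter had 43% against 49.7%, and those that fell were longer, 796 against 596 bp.

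Open chromatin at these regions was read in the separate ATAC table of the Hells line, with 3 Hells CKO and 2 Hells wt libraries of the same age and no test here. Only 16.3% of state 7 hotspots held an ATAC region. There the median was 2.97, 2.29 and 2.75 CPM in Hells CKO and 5.61 and 5.603 in Hells wt. Where breaks were listed in both genotypes the medians were 2.97, 2.29 and 2.53 against 7.64 and 6.85. Promoters with a CKO-only DMC1 peak had 39.6, 35.9 and 32.1 against 39.6 and 35.2, with the groups intermingled. Of the state 7 regions with no DMC1 peak and no promoter, 97 (4.8%) held an ATAC region. There the medians were 2.51, 2.29 and 2.64 against 2.49 and 2.49, and the groups intermingled. The H3K4me3 change of these 97 alone was not computed, and the median over all 2018 tested was -2.0. State 7 hotspots with an ATAC region had a median H3K4me3 change of -3.22 and those without one -2.93.

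Within state 7, hotspots that still had a DMC1 peak in Hells CKO had not kept their H3K4me3. Of 856 such hotspots there, 852 fell, with a median of -3.21. Their median level was 1.21, 1.24 and 0.697 CPM in Hells CKO and 5.31, 12.4, 10.1 and 10.3 in the competent libraries. Of 8555 tested state 7 hotspots with the heterozygote peak only, 8412 fell, and the median was -2.95. Outside state 7, 95 of 288 hotspots with both peaks fell, 1 rose and 192 passed in neither direction, with a median of -0.30. For those with the heterozygote peak alone it was 1121 of 1859 that fell, with a median of -1.34.

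Summed over regions the picture turned on those outside state 7. The log2 ratio of counts in hotspots with both peaks to counts in hotspots with the heterozygote peak alone was -0.66, -1.32 and -1.15 in Hells CKO and -1.84, -1.75, -1.70 and -1.59 in the competent libraries. The groups did not overlap, and the difference was 0.68 (exact two-sided permutation test, p = 0.0571, the smallest that 3 libraries against 4 allow). Within state 7 alone the difference was -0.15 (exact permutation p = 0.571), and outside it 0.41 (exact permutation p = 0.0571). The split by state was chosen after the data were seen. By number of regions within state 7, 99.5% of the hotspots listed in both genotypes fell and 98.3% of the others, with medians of -3.21 and -2.95. Their median competent levels differed, 9.53 against 3.13 CPM (means of 4 libraries). The part of this in the fold change was not tested.

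As shares of all counts, hotspots of both kinds held 1.37%, 1.73% and 1.26% in Hells CKO, 4.47% in Hells wt, 7.63% in Spo11/+ and 6.50% and 6.16% in Spo11/Spo11. Hells wt lay between the groups. Against promoters without a DMC1 peak, the log2 ratio of summed counts differed by -2.48 (Hells CKO minus competent) for hotspots with the heterozygote peak only and by -1.80 for those with both (exact permutation p = 0.0571 each, 0.133 adjusted over 7 classes). No test of this design could pass 0.05. The ratio for promoters with a heterozygote DMC1 peak differed by -0.36 (exact permutation p = 0.171), for promoters with a CKO-only peak by -0.15 (p = 0.629), for distal regions with a CKO-only peak by -0.35 (p = 0.114), for distal HELLS sites by -0.18 (p = 0.114) and for other regions by -0.19 (p = 0.0571). The last had the groups apart, from -0.89 to -0.73 in Hells CKO and from -0.67 to -0.54 in the competent libraries. The 9 chromosome 9 regions, with their uneven share across libraries, fall largely in the reference class.

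Places with a DMC1 peak in the knockout list alone showed little change in H3K4me3 against the 4 controls together. Of 8061 promoters with a CKO-only DMC1 peak, 288 rose (3.57%) and 22 fell (0.273%), where 3.74% of all regions rose and 17.4% fell. The median was 0.17, beside 0.22 for the 14578 promoters with no DMC1 peak. This order depended on the control. Against Hells wt alone the medians were 0.35 for promoters with a CKO-only peak and 0.09 for those with no DMC1 peak. Against Spo11/+ they were 0.11 and 0.29. Against the first Spo11/Spo11 library they were 0.13 and 0.22, and against the second 0.09 and 0.26. The median level of promoters with a CKO-only peak was 58.0, 44.7 and 53.2 CPM in Hells CKO. It was 40.2, 47.9, 47.1 and 48.7 in the competent libraries, so that the groups overlap. These promoters already had a higher median level in the competent libraries, 46.0 ± 3.9 CPM (SD, n = 4), than promoters with no DMC1 peak, 9.31 ± 0.48 CPM (SD, n = 4), and were longer, 3001 against 1854 bp. Away from promoters, 53 of 3770 regions with a CKO-only DMC1 peak fell (1.41%), 19 rose (0.504%), and the median was -0.07. Of the 14692 DMC1 peaks listed for Hells CKO, 96.0% overlapped an H3K4me3 region, against 79.7% of the 15831 listed for the heterozygote. Few hotspots held a HELLS peak. The HELLS peaks were called in mice with the CAST allele of Prdm9, and the part of that in the overlap was not tested. Of the hotspots, 16 held one, 12 with the heterozygote DMC1 peak alone (0.115%) and 4 with both (0.35%). Promoters held more: 936 of those with a CKO-only DMC1 peak (11.6%), 98 with a heterozygote peak (4.5%) and 236 with no DMC1 peak (1.62%). Of 80 distal HELLS regions, 0 fell and 3 rose by edgeR (3.75%, about the 3.74% of all regions that rose). At an unadjusted p under 0.05 it was 1 and 9, and by DESeq2 0 and 4.

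Taken alone, each control gave the same direction at hotspots but a different size. These 4 comparisons share the 3 Hells CKO libraries, and in each the single control was assumed to vary like Hells CKO. Against Hells wt, 7316 of 11558 hotspots fell and 0 rose, with a median of -2.28, where 11.1% of all regions fell. Against Spo11/+ it was 9591 hotspots and a median of -3.16, with 15% of all regions. Against the first Spo11/Spo11 library 8941 hotspots fell, with a median of -2.85, and against the second 8820, with a median of -2.78, where 13.9% and 13.5% of all regions fell. Loss at hotspots was thus seen against controls that make breaks and against controls that lack SPO11.

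**Figure D4:**
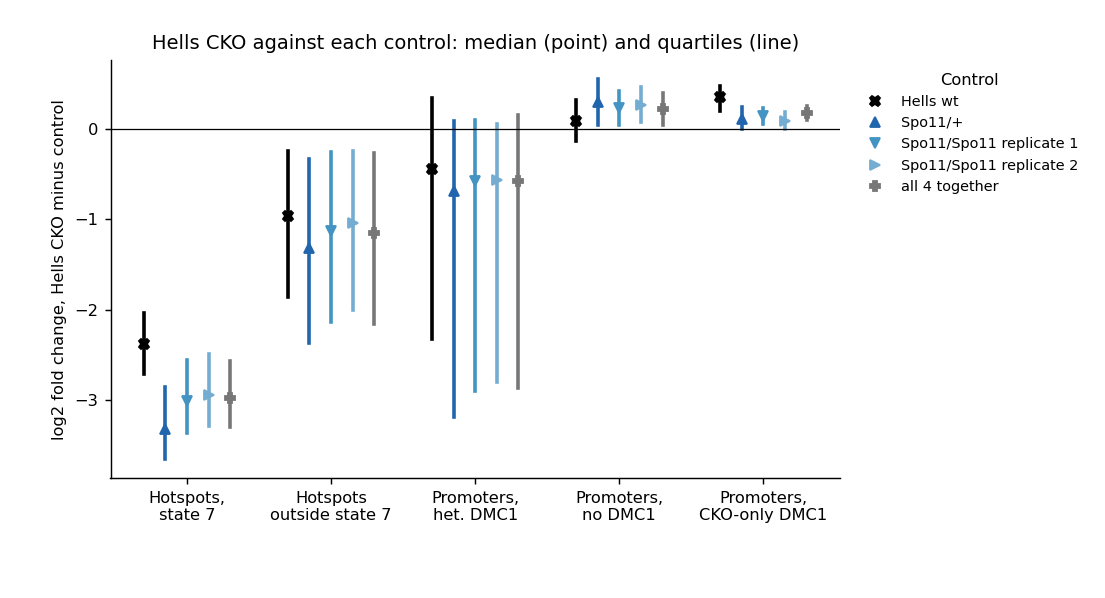
Log2 fold change of H3K4me3 in Hells CKO against each competent library alone and against all 4 together: points are medians over a set and lines span its quartiles. At state 7 hotspots every control gives a median at or below -2.38, with Hells wt nearest to 0 and Spo11/+ farthest, and at promoters without DMC1 the medians are above 0.

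The control of the same line showed the smallest loss. The median at hotspots outside state 7 was -0.97 against Hells wt and -1.32, -1.13 and -1.04 against the others. Hells CKO replicate 2 set against Hells wt alone, the 2 libraries with neighbouring identifiers, gave a median of -1.70 at hotspots and -1.83 in state 7, where the 3 knockout libraries against all 4 controls gave -2.84 and -2.98. The sign is the same and the size smaller. Of the knockout libraries, replicate 2 had the highest level at state 7 hotspots. Both libraries were also the highest in the chromosome 9 regions, and the part of this in the smaller loss was not tested.

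On the sex chromosomes, too, the loss lay mostly in state 7. Of 436 state 7 hotspots tested on chromosome X, 426 fell, with a median of -3.0. Of 255 chromosome X promoters that had a heterozygote DMC1 peak outside state 7, 3 fell and 5 rose, and the median was 0.17. On chromosome Y, where the heterozygote list gave no hotspot in the table, 181 of 186 state 7 regions fell and 0 rose by edgeR, with a median of -2.65. Before adjustment, 182 were lower and 2 higher at p under 0.05, and by DESeq2 181 fell and 0 rose. Their median level was 0.218, 0.310 and 0.202 CPM in Hells CKO and 0.992, 2.00, 1.66 and 1.73 in the competent libraries. Much of mouse chromosome Y is repeated, so that reads may be shared between copies and each region is uncertain. Of the other 90 regions on chromosome Y, 11 were lower (12.2%) and 10 higher (11.1%), and the median was 0.37, with quartiles of -0.09 and 0.85. Their median level was 5.01, 3.999 and 4.84 CPM in Hells CKO and 3.33, 2.59, 2.49 and 2.46 in the competent libraries.

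Regions that rose were fewer and changed less. The 2954 higher regions had a median log2 change of 0.61, and 365 of them exceeded 1, while the 13721 lower regions had a median of -2.84, and 13196 were beyond -1. Promoters made up 57.5% of the higher regions, 1387 of them with no DMC1 peak. The count differed with scaling. With TMM factors taken from promoters without DMC1 it was 366 higher against 14956 lower, and with library size alone 1039 against 14146. The median of all regions, 0.09 in the main fit, was -0.12 and -0.03 in these. With Hells wt and Spo11/+ as the only controls the count of higher regions was 175. Leaving out 1 library at a time gave 585 higher regions without Hells CKO replicate 3, 673 without Spo11/+, 839 and 1182 without the first and second Spo11/Spo11 library, and 5808, 5884 and 9300 without Hells CKO replicate 2, Hells wt and Hells CKO replicate 1.

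The 6 higher regions with the lowest p, outside the chromosome passed over, included promoters of 3 genes. At Gsta2, which encodes a glutathione transferase (chr9:78345103-78347450), the level was 8.49, 9.19 and 10.3 CPM in Hells CKO and 4.82, 4.52, 4.04 and 5.13 in the competent libraries, a 2.02-fold rise. Lemd1 (chr1:132199569-132202013) had 10.2, 9.19 and 15.03 CPM against 5.81, 2.99, 4.40 and 2.97. Parp10, a mono-ADP-ribosyltransferase gene (chr15:76242518-76243988), had 10.04, 7.64 and 11.2 CPM against 5.10, 5.09, 5.19 and 4.92. The largest rise was between genes at chr5:109906086-109907668, with 9.95, 6.81 and 10.1 CPM in Hells CKO, 2.62 in Hells wt and 0.534 to 0.698 in the Spo11-line libraries. Hells wt stood above its fellow controls there, as it did at chr7:32489087-32492246 (3.97 CPM against 2.33 to 3.02) and chr7:31760695-31762637 (3.47 against 1.90 to 2.52).

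Promoters of Hells, of Prdm9 and of genes that act with them did not pass the test in either direction. The Hells promoter (chr19:38929277-38932838) had 89.4, 57.5 and 73.0 CPM in Hells CKO and 54.8 to 76.6 in the competent libraries, which checks nothing, since the deleted part is unknown. Prdm9 had 116, 61.7 and 69.9 CPM against 55.4 to 82.2, a change of 0.18 ± 0.21. The changes were small as well at Spo11 (-0.31 ± 0.185), Dmc1 (-0.14 ± 0.16), Zcwpw1, a reader of the PRDM9 marks (0.00 ± 0.17) and Cxxc1, a PRDM9-binding protein gene (0.06 ± 0.16). A second region over an exon of Spo11 (chr2:172986526-172987667), looked at after its values were seen, had 9.17 and 10.3 CPM in the Spo11/Spo11 libraries, 0.133 in Spo11/+, 1.28 in Hells wt and 0.0622 to 0.464 in Hells CKO. It was lower in Hells CKO by edgeR (-4.34 ± 1.19, adjusted p = 0.0206), although the groups overlap, and with Hells wt and Spo11/+ as the only controls it did not pass (-1.22, edgeR adjusted p = 0.598). Nor did it pass without any 1 of the Hells CKO libraries or without the second Spo11/Spo11 library (edgeR adjusted p from 0.0504 to 0.104). The mark there set the Spo11/Spo11 libraries apart from the rest. The library labelled Spo11/+ stood with the others and not between, and whether its label or the allele accounts for this cannot be told apart, so that comparisons with it rest on the label.

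In 13 lists of genes, each gene was counted by its 1 promoter region of highest mean count, and of 168 distinct regions tested 16 were called. By edgeR, none of 12 partners of PRDM9 and HELLS, 15 writers and erasers of H3K4 methylation, 30 genes of meiotic recombination and synapsis, or 12 of meiotic entry and cohesin passed the test, nor did 22 imprinted, 13 housekeeping and 2 blood and macrophage genes. The second Spo11 region is outside this count. Over these 104 distinct regions, 3 were lower and 6 higher at p under 0.05 before adjustment, and by DESeq2 0 fell and 2 rose. The list medians were 0.15, 0.18, -0.12, -0.06, 0.12, 0.13 and 0.04, beside 0.18 for all 24839 promoters, of which 1367 fell and 1698 rose. Lowest among the recombination genes were Hormad1, an axis protein gene, at -0.44 (20.8 ± 6.7 against 28.2 ± 6.8 CPM, SD, n = 3 and 4) and Msh4, a crossover factor gene, at -0.40 (19.4 ± 4.2 against 25.5 ± 2.7 CPM), and neither passed.

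With 1 region counted per gene, the largest change at a listed gene was at Dnmt3c, the rodent methyltransferase that silences young retrotransposons in male germ cells. Its region (chr2:153694279-153695736, state 2, no DMC1 peak) ends 916 bp before the gene and had 4.35, 4.03 and 3.08 CPM in Hells CKO and 8.72, 12.0, 10.7 and 11.0 in Hells wt, Spo11/+ and Spo11/Spo11. It fell by 1.48 on the log2 scale, with an SE of 0.18 (edgeR adjusted p = 6.4e-05), and the groups did not overlap. Dnmt3c is a near copy of its neighbour Dnmt3b, so that reads may be shared. In the same list of 15 genes Tet1, a 5-methylcytosine dioxygenase gene, rose by 0.50 ± 0.12, with 52.6 to 67.1 CPM against 38.0 to 42.8. Piwil1, which binds piRNAs in pachytene cells, fell by 0.41 on the log2 scale, with 8.52, 10.7 and 9.39 CPM against 12.0, 12.2, 13.4 and 12.97, the only one of 13 pachytene and spermatid genes to pass (edgeR adjusted p = 0.0491). Piwil1, Gfra1, Ret, Wt1, Fshr and Clu fall outside the rule by which genes were named, and were named after their values were seen, to list every call of their lists.

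Promoters of Sertoli cell genes were higher in the knockout libraries. Of 12 tested, 8 rose and 0 fell, with a median of 0.62, where 6.84% of all promoters rose and 5.5% fell. The 8 were Sox9, the male sex-determination factor, Wt1 and Gata4, also transcription factors, Dhh, Fshr, Cldn11, Clu and Inha. At Fshr, Cldn11 and Clu the groups overlap. Every Hells CKO library was above every competent one at 6 of the 12, as at 3895 of all 24839 promoters. Sox9 had 142, 96.0 and 142 CPM in Hells CKO and 87.1, 76.2, 84.6 and 90.7 in the competent libraries. The summed level of the 12 was 758 to 1118 CPM in Hells CKO and 584 to 690 in the competent libraries, and no marker was at 0. The count of 8 that rose also rested on the controls and scaling. It was 0 with Hells wt and Spo11/+ as controls, 1 with Spo11/Spo11 alone and 0 with TMM factors from promoters without DMC1. Leaving out Hells CKO replicate 3, Spo11/+ or the first Spo11/Spo11 library each gave 0, and leaving out Hells CKO replicate 1 gave 5. Of 16 spermatogonial genes, Gfra1, the GDNF receptor gene, Ret and Ccnd2 rose and 0 fell, with a list median of 0.20. Of 4 tested Leydig cell genes Nr5a1 rose, which Sertoli cells express as well, and of 9 peritubular, stromal and endothelial genes Kdr rose. The list medians were 0.45 for Leydig cell genes and 0.16 for peritubular, stromal and endothelial genes. The latter and the spermatogonial median lay near that of all promoters. The Dhh and Inha regions also cover the starts of Rhebl1 and Obsl1. In enriched cells, more cells of a type and more mark per cell cannot be told apart, and the part of such cells in the other changes was not tested.

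**Figure D5:**
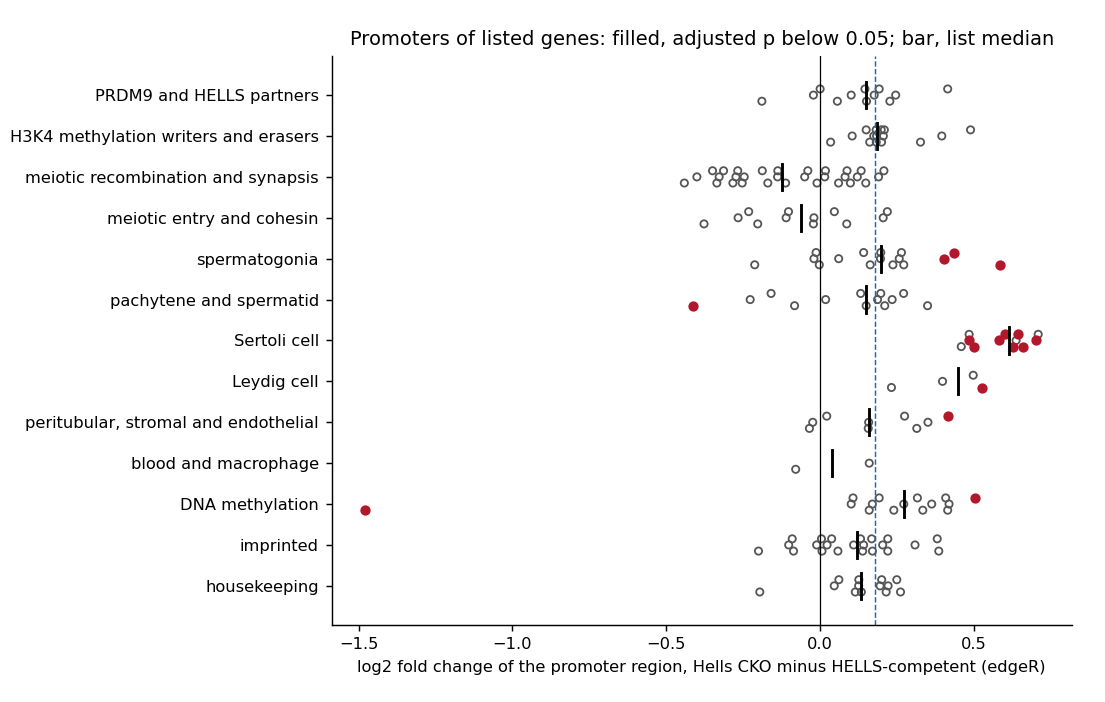
Log2 fold change of H3K4me3 at the promoter region of each listed gene, Hells CKO minus the competent libraries, with filled points at an adjusted p under 0.05, a black bar at each list's median and a dashed line at the median of all promoters, 0.18. Filled points gather in the Sertoli cell list, and Dnmt3c stands alone at -1.48.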

How the data were processed

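Members and lists were chosen with earlier results of these data known. Raw read counts per region were deposited as whole numbers without normalisation, and 2 columns that matched no sample by name were not used. The submitters' processing notes name CASAVA, BWA 0.7.15, Bowtie 0.12.9, MACS 1.4.2 and mm10; which step each served is not given in the sources used here. The authors' peak lists and 11-state segmentation were overlapped by at least 1 bp. Chromosome lengths were checked against GRCm38, the source of the sequences from RefSeq. Genes and starts came from GENCODE M21.

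The 13321006 to 42007820 counts per library were fitted with edgeR 4.0.16 in R 4.3.3 (quasi-likelihood F test, TMM, filterByExpr, which kept 78933 of 78960 regions, Benjamini-Hochberg threshold 0.05), with 3 Hells CKO against 4 competent libraries, tested on simulated data first. A second fit gave each control its own group. DESeq2 1.42.0, other scalings, no filter, other control sets and leave-one-out fits were alternatives. Ratios of summed counts were compared by exact permutation (scipy 1.17.1).

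Named regions were, outside 1 chromosome, the 6 hotspots, 5 promoters and 4 other regions of lowest p among those lower, the 6 of lowest p among those higher, the 4 hotspots highest in each arm, the 10 listed promoters of lowest p, and 6 fixed genes. ATAC counts, from which 56 duplicated regions were removed, were scaled to their total and not tested.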

Additional observations from a re-analysis of the deposited data

Results flagged for a closer look

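Of 63 sets of 4 values from the HELLS-competent libraries, 8 had 1 library far from the other 3 (by Dixon's test of the gap to the nearest library, which chance passes in about 1 group in 20). In 7 of the 8 it was Hells wt. It held 5.52% of its counts in the 9 chromosome 9 regions, and its log2 ratio of summed counts to promoters without DMC1 was -2.70 for promoters with a heterozygote DMC1 peak and 0.20 for promoters with a CKO-only peak, both the lowest of the 4. Its median over other regions outside state 7 was 3.26 CPM, the highest. Single regions where it stood apart were the chromosome 7 region in 1700010N08Rik, nearest to the coding gene Gm5591 (5.10 CPM, lowest), the chromosome 5 region near Gm15446 (2.62 CPM, highest) and the Dmc1 promoter (37.3 CPM, lowest). Spo11/+ stood apart at the Tet1 promoter (38.0 CPM, lowest).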

How the results depend on the processing

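Loss at hotspots kept its direction under every alternative run, and the counts of lower regions, lower hotspots and lower state 7 hotspots stayed within 1.5 times. Counts of higher regions did not. Higher regions (2954) numbered 1812 with the control groups at equal weight, 4893 by DESeq2, 175 with Hells wt and Spo11/+ as controls, 1202 with Spo11/Spo11 alone, 366 with TMM from promoters without DMC1 and 1039 with library size alone. Higher promoters without DMC1 (1387) numbered 833, 2297, 91, 346, 121 and 507 in that order. Lower promoters without DMC1 (275) were 146 with Hells wt and Spo11/+ and 455 with TMM from such promoters. Higher Sertoli cell promoters (8) were 5 at equal weight, 0 with Hells wt and Spo11/+, 1 with Spo11/Spo11 and 0 with TMM from promoters. Leaving out 1 library gave 585 to 9300 higher regions, 228 to 3049 higher and 202 to 491 lower promoters without DMC1, 0 to 10 higher Sertoli cell promoters and a median of all regions of 0.0194 to 0.1203. Each lowest count came without Hells CKO replicate 3. The cause was not tested.

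Over all regions the median (0.09) became -0.118 when TMM used promoters without DMC1, -0.0276 with library size alone and -0.0165 for Hells CKO replicate 2 against Hells wt. That of promoters without DMC1 (0.22) was 0.00767, 0.1002 and 0.0829. That of other regions outside state 7 was -0.0458 with TMM from promoters. For replicate 2 against Hells wt, hotspots had -1.70 and state 7 hotspots -1.83. As shares of all counts, the ratio turned to 0.0598 for promoters with a CKO-only DMC1 peak, 0.0256 for distal HELLS sites and 0.0135 for other regions. The ratio of hotspots with both peaks to those with one was -0.153 in state 7 alone. The cause was not tested. No paired analysis was possible because the labels number no replicates and name no animals that link a knockout library to a control. With 1 library each of Hells wt and Spo11/+, spread within those groups was not measured.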
